A study of Mus musculus with 60 samples.

Results

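The genes described here regulate or mark steps of the oligodendrocyte lineage, the glial line that makes central myelin. They were chosen by name from the 770 genes of the panel. Of 6 listed genes, 5 had a row in the table (Sox10, Myrf, Erbb3, Enpp6 and Bcas1). Cspg4, the proteoglycan of oligodendrocyte precursor cells, had no row under its symbol or its synonyms and was not analysed here. The study asked whether a mammary tumor outside the brain alters neuroimmune transcripts in the brain, and whether the time of day at which tissue is taken changes the answer. The samples came from 20 female Balb/C mice, 13 weeks old at collection, whose mammary glands had been injected with vehicle (DMEM) or with 67NR cells. These cells form mammary tumors that stay local, and as a line from 1 tumor they stand for that tumor only. Tissue was taken 25 days later at mid-dark (ZT 19) or mid-light (ZT 7), with 5 mice in each of the 4 groups. All mice shared the injection procedure and the same light schedule, and no group carried a genetic change. Different mice were sampled at each phase.

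Hippocampus (HPC), hypothalamus (HYP) and brain stem (BS) of the same mice were assayed with nanoString nCounter probes for the Mouse Neuroinflammation panel. Of 60 samples, 56 had values. Values were present for 3 vehicle injected mice in HYP at mid-dark, for 4 in HYP at mid-light, for 4 in BS at mid-dark, and for 5 mice in each of the other groups. The hypothalamic samples of mice 10, 12 and 32 and the brain stem sample of mouse 8, all vehicle injected, were not analysed here. The values are on a log2 scale after normalization, so a difference of 1 is a 2-fold difference, and the count depth behind them is unknown. One probe reads each gene, so a level is compared between samples and never between genes. The spread between mice includes both biological and technical variation.

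An oligodendrocyte precursor first leaves the cell cycle, then becomes a premyelinating cell and at last wraps axons. Sox10 is the transcription factor that holds cells in the lineage and acts with Myrf, a membrane-bound factor that releases a DNA-binding fragment and switches on myelin genes. Erbb3 is a receptor tyrosine kinase that binds neuregulins, has little kinase activity of its own, and signals through partner receptors to PI3K and Akt. Enpp6, a choline-specific phosphodiesterase, is abundant in newly formed oligodendrocytes, and Bcas1 marks oligodendrocytes at the onset of myelination. Sox10 and Erbb3 are also made by Schwann cells of peripheral nerve.

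The promoter of Enpp6 is shown because its transcript was one of the pair whose level differed between phases. It was the only promoter of the 5 measured genes in the RefSeq table used here (GRCm38.p6). The 250 bases before the transcription start, chr8:46986637-46986886 on the plus strand, lie outside the transcript, and the capitals mark ACAATG, a form of the short element read by SOX proteins.
Enpp6: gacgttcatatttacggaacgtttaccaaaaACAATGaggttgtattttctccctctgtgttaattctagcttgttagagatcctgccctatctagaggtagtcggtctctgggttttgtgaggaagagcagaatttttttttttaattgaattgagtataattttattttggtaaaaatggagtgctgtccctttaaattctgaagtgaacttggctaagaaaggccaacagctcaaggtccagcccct
The element begins 219 bases before the start. On either strand, ACAATG was present in 10.7% of 32851 mouse promoters of this length and in 9.65% of the 601 panel genes with a promoter in the table. The letters CACGTG (the E-box of clock factors, in 6.02% of all promoters), ACAAAG (another SOX form, 16.5%), CTGGCAC and CTGGTAC (forms of the MYRF element, 4.19% and 1.83%) were searched on both strands and not found in this window. ACAAAG and ACAATG differ in 1 letter and cannot mark the same site. The GC content of the window was 38.4%.

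All 5 genes were higher in BS than in HPC and than in HYP, whereas HYP and HPC differed for Bcas1 alone. The excess in BS ran from 1.93-fold for Erbb3 to 3.26-fold for Enpp6 against HPC. Each gene was higher in BS in 19 of 19 mice against HPC and in 16 of 16 mice against HYP. Across the panel, 23% of genes were higher in BS than in HPC within every mouse, and 14.7% were higher in BS than in HYP. In bulk tissue, fewer cells of a type and less RNA per cell cannot be told apart.

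**Figure D1:**
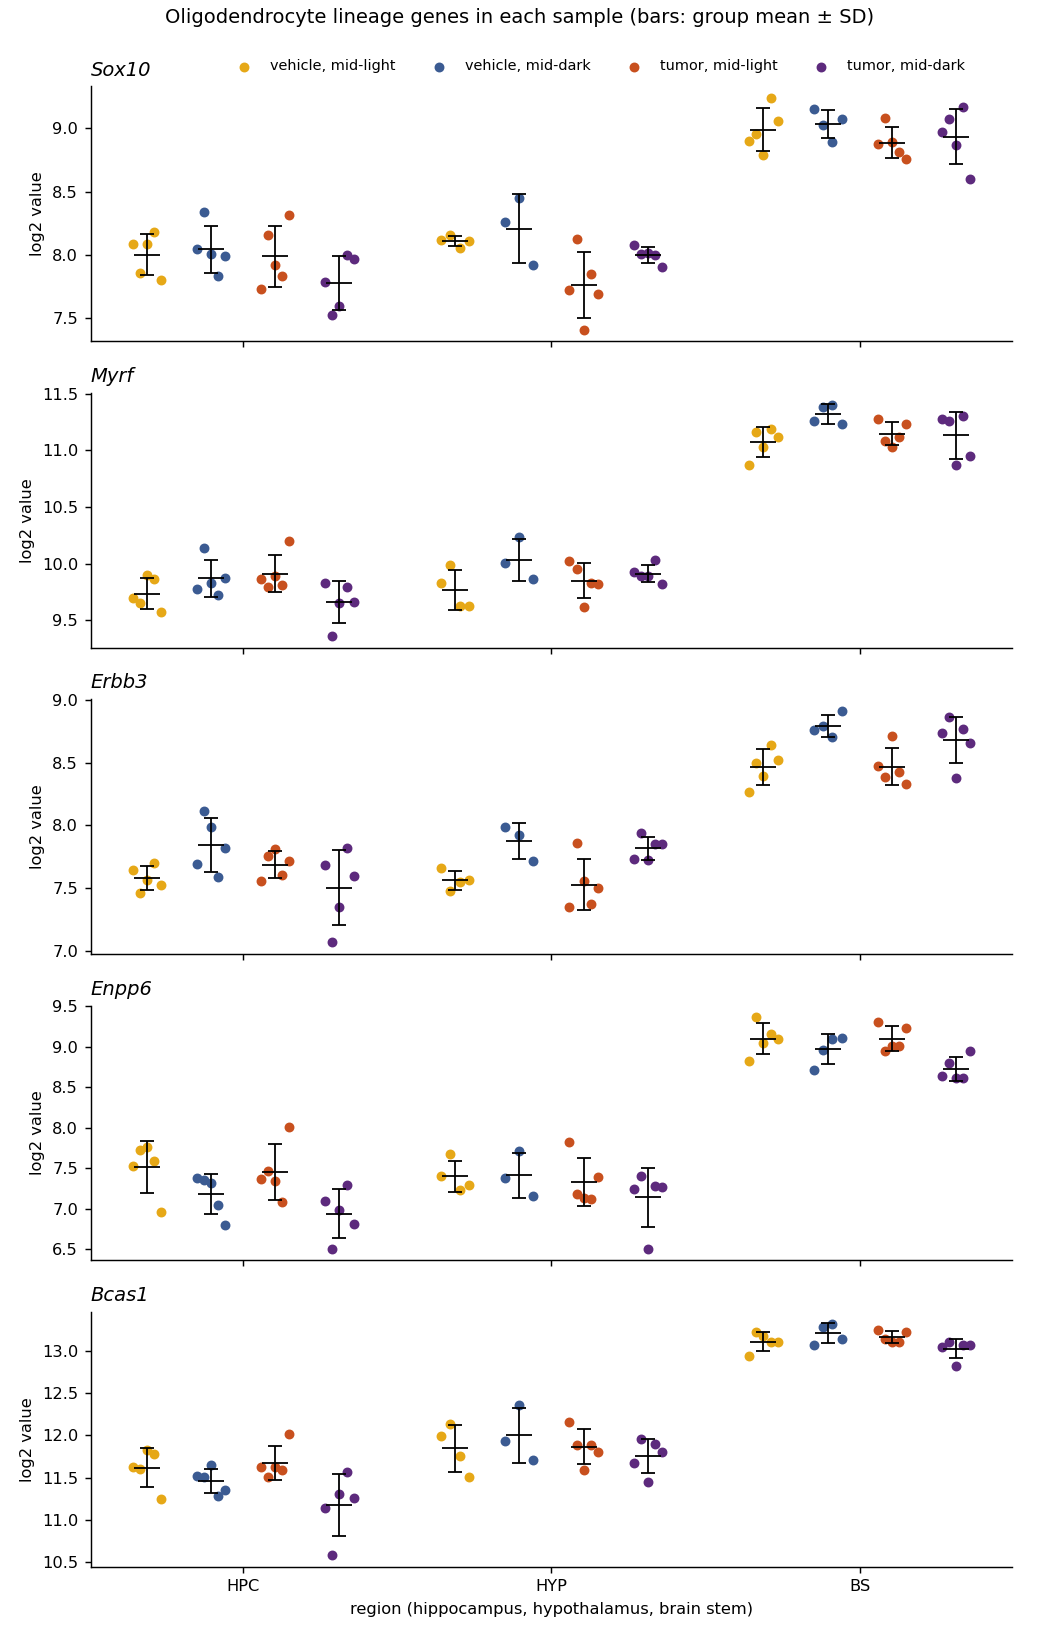
Normalized log2 value (y axis) of each gene in each of the 56 samples, by region, tumor status and phase. Each point is 1 mouse, and the black bars give the group mean ± SD. All BS points lie above all HPC and HYP points for each of the 5 genes.

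Among the transcription factors, the Sox10 level ran from 7.53 to 8.34 in HPC (median 7.98, n = 20), from 7.41 to 8.45 in HYP (median 8.02, n = 17) and from 8.60 to 9.24 in BS (median 8.95, n = 19). The Myrf level ran from 9.36 to 10.20 in HPC (median 9.80), from 9.62 to 10.23 in HYP (median 9.89) and from 10.87 to 11.40 in BS (median 11.19). For both genes no BS sample overlapped with either other region, and the HPC and HYP ranges overlapped. No overlap of this kind, with BS above, was found for 13.9% of panel genes against HPC and for 7.79% against HYP. BS exceeded HPC by 1.01 for Sox10 (SE 0.05) and by 1.38 for Myrf (SE 0.05), as log2 differences in the limma fit across all genes (adjusted p = 2.27e-22 and 4.58e-31).

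The Erbb3 level ran from 7.07 to 8.12 in HPC (median 7.66), from 7.35 to 7.99 in HYP (median 7.71) and from 8.27 to 8.92 in BS (median 8.65). The Enpp6 level ran from 6.51 to 8.01 in HPC (median 7.33), from 6.51 to 7.82 in HYP (median 7.29) and from 8.61 to 9.37 in BS (median 9.01). The Bcas1 level ran from 10.58 to 12.01 in HPC (median 11.54), from 11.44 to 12.36 in HYP (median 11.88) and from 12.83 to 13.33 in BS (median 13.11). Again the BS samples stood above every sample of the other regions for all 3 genes. Log2 differences from HPC to BS were 0.95 for Erbb3 (SE 0.05), 1.70 for Enpp6 (SE 0.08) and 1.65 for Bcas1 (SE 0.06), with adjusted p of 7.17e-23, 3.65e-25 and 1.61e-28.

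Of the 5 genes, 5 passed the limma test as higher in BS than HPC (adjusted p under 0.05, Benjamini-Hochberg over all genes), beside 41.7% of all genes. The same 5 were higher in BS than HYP, beside 30.4% of all genes, with log2 differences of 0.95 for Sox10 (SE 0.06), 1.28 for Myrf (SE 0.05), 0.91 for Erbb3 (SE 0.05), 1.65 for Enpp6 (SE 0.08) and 1.26 for Bcas1 (SE 0.07). Between HYP and HPC, 1 of 5 passed, beside 41.4% of all genes called higher in HYP. This was Bcas1, higher in HYP by 0.39 (SE 0.07, adjusted p = 7.27e-07) and in 14 of 17 mice. Myrf was next, with a log2 difference of 0.10 (95% CI 0.00 to 0.19, adjusted p = 0.0645) and a higher value in HYP in 14 of 17 mice. It was called when mouse 3, 9, 10, 22 or 29 was left out (adjusted p from 0.0270 to 0.0498). For Sox10, Erbb3 and Enpp6, the difference of HYP from HPC was 0.07, 0.05 and 0.05, with 95% intervals of -0.05 to 0.18, -0.06 to 0.15 and -0.11 to 0.21. In order of level, BS therefore came first for all 5 genes, and the order of HYP and HPC was not resolved for 4 of them.

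Mature oligodendrocyte genes give a yardstick for these regional differences. All 16 genes of that list, among them Mag, Mog, Cnp and the connexin gene Gjb1, were called higher in BS than HPC (median log2 difference 1.33, against 0.03 over all genes). All 16 were also higher in BS than HYP (median 1.10, against -0.02). Between HYP and HPC, 11 of 16 were higher and 1, Opalin, was lower (median 0.24, against 0.05). The median over the 5 lineage genes was 1.38, 1.26 and 0.07 for the same 3 comparisons.

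The 5 genes did not share one size of regional difference once the mean of the 16 mature genes was subtracted within each sample. Enpp6 exceeded the mature mean's own excess in BS by 0.44 against HPC (SE 0.06) and by 0.61 against HYP (SE 0.06). Bcas1 exceeded it by 0.39 (SE 0.04) and 0.22 (SE 0.04), and Myrf by 0.11 (SE 0.04) and 0.24 (SE 0.04). Sox10 stood below it, at -0.25 (SE 0.04) and -0.10 (SE 0.05), and so did Erbb3, at -0.31 (SE 0.04) and -0.14 (SE 0.05). In HYP relative to HPC, Bcas1 was above the mature mean by 0.17 (SE 0.04), and Sox10, Myrf, Erbb3 and Enpp6 were below it by between -0.17 and -0.12.

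These relative differences all passed the limma test (adjusted p from 8.1e-13 to 0.0356), but so did 96.9% of all genes for BS against HPC, 97.5% for BS against HYP and 66.6% for HYP against HPC. The subtraction moved the median of all genes to -1.24, -1.07 and -0.17, since most panel genes are not oligodendrocyte genes. Of the genes called above the mature mean in BS there were 3.64% against HPC and 2.34% against HYP, and Myrf, Enpp6 and Bcas1 were in both groups. The Myrf difference against HPC was 0.04 (adjusted p = 0.333) when Opalin and Pllp were left out of the mature mean, and 0.09 (adjusted p = 0.0865) with RNA absorbance ratios in the fit. The Sox10 difference against HYP had an adjusted p between 0.0509 and 0.0876 when any one of 8 mice was left out, and 0.0982 with the mouse block as a fixed effect.

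**Figure D2:**
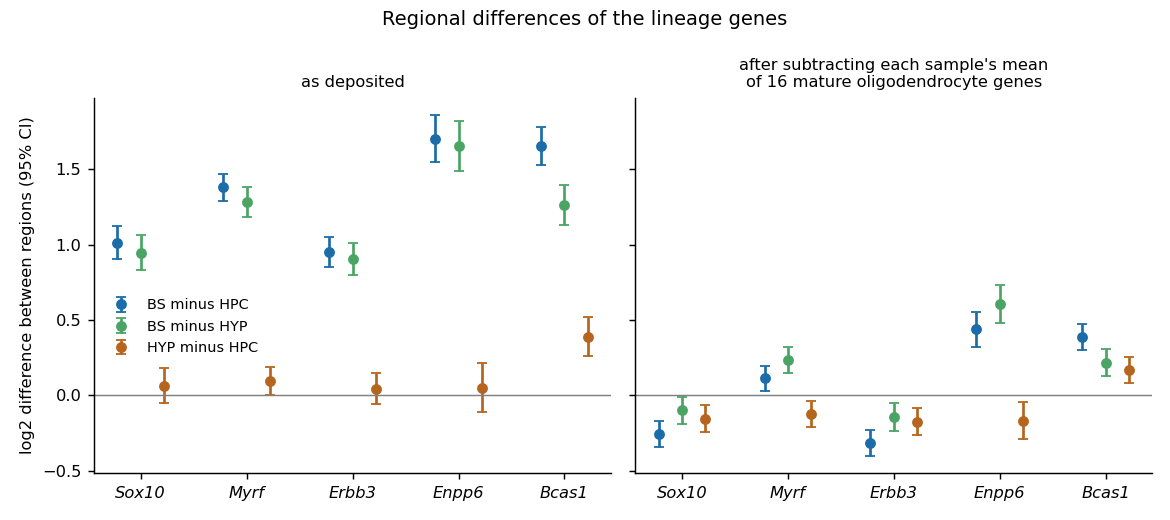
Log2 difference between regions (y axis) for the 5 lineage genes, on the left from the deposited values and on the right after subtracting each sample's mean of 16 mature oligodendrocyte genes. Points are limma estimates with 95% CI. On the right Enpp6, Bcas1 and Myrf lie above 0 and Sox10 and Erbb3 below it for BS against either region.

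Genes listed for other cell types differed between the regions too. Of 6 forebrain neuron genes 6 were lower in BS than HPC (median -2.52), and 9 of 10 microglia genes were lower (median -0.50), beside 34.9% of all genes called lower. Both genes listed for peripheral glia, Pmp22 and Ngfr, were higher in BS than HPC, by 1.77 and 1.20, beside 41.7% of all genes called higher. The summed level of this list of 2 genes ran from 9.84 to 10.57 in BS and from 8.02 to 8.86 in HPC. No gene of this list was at the lowest value of the table in any sample. Whether these 2 transcripts came from peripheral glia was not tested, nor was the part of such cells in the differences of Sox10 and Erbb3.

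Genes around these regulators did not follow one direction. Of 8 genes that Erbb3 signals through or with, 5 were higher in BS than HPC (Pik3ca, Pik3r1, Pik3cb, Akt1 and Egfr) and 3 were lower (Pik3r2, Pik3cd and Akt2). Of 11 modulators of the lineage, 7 were lower in BS than HPC and none higher, beside the same 34.9% of all genes called lower. Dlx1, which favours an interneuron fate over an oligodendrocyte fate, was lower by -3.82, and Lingo1, an inhibitor of oligodendrocyte differentiation that neurons also make, by -1.56. The forebrain neuron genes were lower in BS too, and the part of neurons in the Dlx1 and Lingo1 differences was not tested.

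Time of day separated 2 of the 5 genes, in opposite directions. Erbb3 was higher at mid-dark, by 0.21 as a mean over the 3 regions (SE 0.05, 1.15-fold, limma adjusted p = 0.0027). Enpp6 was lower at mid-dark, by -0.25 (SE 0.08, 0.839-fold, adjusted p = 0.0224). Of all genes, 8.05% were called higher and 5.45% lower at mid-dark in this fit, in which the mouse was a random block. For Sox10, Myrf and Bcas1 the difference was 0.05, 0.07 and -0.11, with 95% intervals of -0.06 to 0.16, -0.02 to 0.17 and -0.23 to 0.02.

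In the hypothalamus, vehicle injected mice had mid-dark Erbb3 levels of 7.99, 7.93 and 7.71 against mid-light levels of 7.66, 7.47, 7.55 and 7.57. Tumor-bearing mice had mid-dark levels of 7.73, 7.94, 7.72, 7.85 and 7.85 against mid-light levels of 7.35, 7.86, 7.56, 7.37 and 7.50. The vehicle groups did not overlap, which held for 4.16% of panel genes in this direction, and among tumor-bearing mice only mouse 5, at 7.86, reached the mid-dark range. The mid-dark mean exceeded the mid-light mean by 0.30 averaged over tumor status (SE 0.07, adjusted p = 0.0325), beside 1.3% of all genes called higher. The call did not hold when any one of 9 mice was left out, with adjusted p from 0.0529 to 0.113 and log2 differences from 0.28 to 0.30. It was 0.0992 with RNA absorbance ratios in the fit.

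In the brain stem, vehicle injected mice had mid-dark Erbb3 levels of 8.76, 8.79, 8.71 and 8.92 against mid-light levels of 8.27, 8.50, 8.40, 8.65 and 8.52. For tumor-bearing mice the mid-dark levels were 8.74, 8.87, 8.38, 8.77 and 8.66 against mid-light levels of 8.48, 8.39, 8.72, 8.43 and 8.33. The vehicle groups again did not overlap, as for 3.25% of panel genes, while mice 11 and 23, of the tumor-bearing mice at mid-dark, lay within the mid-light range. The mean difference was 0.27 (SE 0.07, adjusted p = 0.0252), beside 2.6% of all genes called higher. Without mouse 3, 12, 13 or 32 the adjusted p was between 0.0502 and 0.0567.

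In the hippocampus the Erbb3 levels ran from 7.07 to 8.12 at mid-dark (median 7.69, n = 10) and from 7.46 to 7.81 at mid-light (median 7.62, n = 10). The mid-dark samples spread on both sides of the mid-light ones, with 4 above and 2 below all of them. The mean difference was 0.04 (95% CI -0.14 to 0.22). It was 0.26 in vehicle injected mice (SE 0.12, adjusted p = 0.293) and -0.19 in tumor-bearing mice (SE 0.12, adjusted p = 0.616).

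For Enpp6 in the hippocampus, vehicle injected mice had mid-dark levels of 7.38, 7.36, 7.32, 7.05 and 6.81 against mid-light levels of 7.53, 7.73, 7.76, 7.60 and 6.96. In tumor-bearing mice, mid-dark levels of 7.09, 6.51, 6.99, 7.30 and 6.82 stood against mid-light levels of 7.37, 7.47, 7.35, 7.08 and 8.01. The phases overlapped, with 6 of the 10 mid-light samples above all mid-dark samples. The mean difference was -0.42 (SE 0.13, adjusted p = 0.0685), beside 5.59% of all genes called in the hippocampus. It was called when the regions were fitted together with the mouse as a block (adjusted p = 0.0144), when genes of low value were left out first (0.0465), and without mouse 13, 19 or 30 (0.0264 to 0.0442). The difference ran from -0.49 to -0.35 when each mouse was left out, and was -0.02 with the mature mean subtracted.

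For Enpp6 in the brain stem, mid-dark levels of 8.72, 8.96, 9.09 and 9.11 stood against mid-light levels of 8.83, 9.37, 9.05, 9.16 and 9.10 in vehicle injected mice. Tumor-bearing mice had 8.65, 8.80, 8.62, 8.61 and 8.95 in the dark group against 9.30, 8.95, 9.01, 9.01 and 9.23 in the light group. The overlap in tumor-bearing mice was between mice 23 and 5 only, both near 8.95. The mean difference was -0.25 (SE 0.08, adjusted p = 0.0708). In the hypothalamus it was -0.09 (95% CI -0.38 to 0.21). The 3-region call of Enpp6 was lost without mouse 6, 28 or 29 (adjusted p from 0.0530 to 0.0668).

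Bcas1 had its largest phase difference among the regions in the hippocampus. Its levels there ran from 10.58 to 11.65 at mid-dark (median 11.33) and from 11.24 to 12.01 at mid-light (median 11.63). The phases overlapped, and the difference was -0.33 (SE 0.11, adjusted p = 0.0907). Fitted with the other regions and the mouse as a block, it was called (adjusted p = 0.0173). So was the difference of -0.50 in tumor-bearing mice alone (adjusted p = 0.0337, against 0.16 in the fit of the hippocampus alone). Without mouse 7, which held the lowest hippocampal level (10.58), these 2 differences were -0.25 and -0.35 in the fit of the hippocampus alone. The joint fit takes 1 spread per gene over all regions, and the Bcas1 SD over mice was 0.30 in HPC, 0.24 in HYP and 0.12 in BS. In HYP and BS the Bcas1 difference was 0.02 and -0.02. Myrf was 0.16 higher at mid-dark in HYP (adjusted p = 0.332) and 0.12 higher in BS (adjusted p = 0.435), and Sox10 differed by 0.17 and 0.05. As for Erbb3, the Myrf levels of vehicle injected mice in BS did not overlap between phases. They ran from 11.23 to 11.40 at mid-dark and from 10.87 to 11.19 at mid-light (difference 0.25, limma adjusted p = 0.275).

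For each of the 5 genes the phase difference in HYP minus that in HPC was positive, from 0.22 for Myrf to 0.35 for Bcas1. Tests of that difference between regions gave unadjusted limma p from 0.0104 to 0.0474 and adjusted p from 0.409 to 0.552, beside 8.83% of all genes with an unadjusted p under 0.05 and 0.39% called. Of the 15 comparisons of phase between regions, 0 passed after adjustment and 8 had an unadjusted p under 0.05. Across all genes, 0.13% were called between BS and HPC and 0% between BS and HYP, and 5.84% and 3.51% had an unadjusted p under 0.05.

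**Figure D3:**
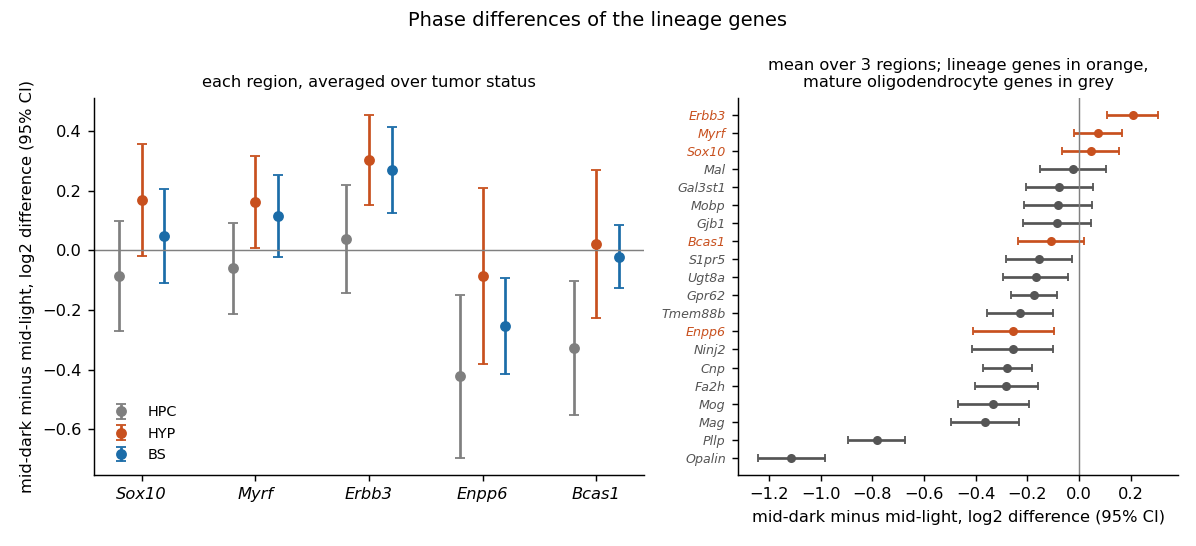
Mid-dark minus mid-light log2 difference with 95% CI, on the left for the 5 lineage genes in each region (y axis) and on the right as a mean over the 3 regions (x axis), for these genes in orange and 15 of the mature oligodendrocyte genes in grey. Erbb3 lies above 0 and Enpp6 among the mature genes, of which all 15 plotted lie below 0.

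Mature oligodendrocyte genes were lower at mid-dark. Of the 16, 9 were called lower over the 3 regions and none higher (median -0.20, against 0.01 over all genes), with the extremes at Opalin (-1.11) and Pllp (-0.78). Enpp6, at -0.25, lay within this list's range, and Erbb3, at 0.21, above its highest member. The mature list mean in BS ran from 10.36 to 10.68 at mid-dark and from 10.69 to 11.02 at mid-light, without overlap. After subtraction of that mean in each sample, the mid-dark excess was 0.49 for Erbb3 (SE 0.04), 0.35 for Myrf (SE 0.04), 0.33 for Sox10 (SE 0.04) and 0.17 for Bcas1 (SE 0.04), and 0.03 for Enpp6 (SE 0.06). The same subtraction raised the median of all genes to 0.29 and gave 79.7% of genes a higher call, so Erbb3 stood 0.20 above that median and Sox10 within 0.04 of it. With Opalin and Pllp left out of the mean, the Erbb3 excess was 0.39 and that of Enpp6 -0.07.

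**Figure D4:**
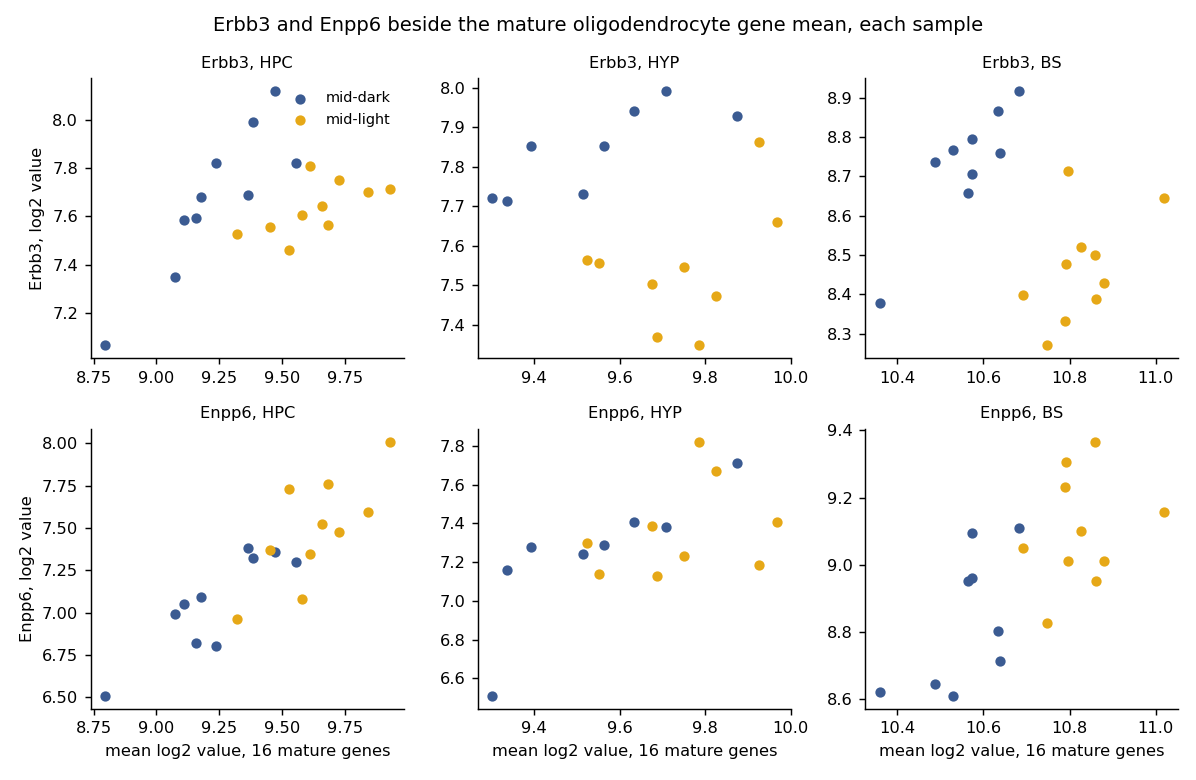
Normalized log2 value of Erbb3 (upper row) and Enpp6 (lower row) against the mean log2 value of 16 mature oligodendrocyte genes in the same sample, by region, with mid-dark in blue and mid-light in yellow. In HPC and HYP, at a like mature mean, mid-dark samples mostly lie higher for Erbb3, while for Enpp6 the phases follow 1 band. The mature means of the phases do not overlap in BS, so samples of a like mean cannot be compared there.

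Of the 8 genes of Erbb3 signalling, none was called between phases over the 3 regions, and the median difference was 0.01. Among the 11 modulators, Igf1r, the receptor of a growth factor for oligodendrocytes, was higher at mid-dark (0.17), with Sox9 (0.13) and Smarca4, a chromatin remodeller (0.10), and Lingo1 was lower (-0.19). Of the peripheral glia genes, Pmp22 was lower at mid-dark (-0.29, adjusted p = 0.000497) and Ngfr had a difference of -0.22 (adjusted p = 0.211), and their summed level in BS ran from 9.84 to 10.36 at mid-dark and from 10.08 to 10.57 at mid-light. The part of these cells in the Erbb3 difference was not tested. The nCounter cartridge of each sample is not given in the sources used here, so a run effect that moved with phase was not tested.

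Tumor status gave no call for any of the 5 genes, within either phase, in any region. Of 30 comparisons 0 passed the adjusted limma test, and 5 had an unadjusted p under 0.05, all of them lower in tumor-bearing mice. Across the panel, the share of genes called was 0.13% in HPC for either phase, 0% in HYP for either phase, and, for mid-dark and mid-light in turn, 0.26% and 0.78% in BS. The shares with an unadjusted p under 0.05 in the same order were 6.63% and 6.89% in HPC, 4.81% and 5.19% in HYP, and 7.28% and 4.81% in BS. At mid-dark all 5 genes had a negative difference in all 3 regions, with medians of -0.27 in HPC, -0.21 in HYP and -0.18 in BS. The medians of the mature genes were -0.16, -0.20 and -0.19, and those of all genes were between -0.01 and 0.01. At mid-light the medians of the 5 genes were 0.05, -0.03 and 0.00. RNA purity was not balanced in BS. Over both phases, the RNA absorbance ratios there had medians of 1.88 and 1.85 in tumor-bearing mice (lowest 1.34 and 1.44). In vehicle injected mice they were 1.96 and 2.12 (lowest 1.72 and 1.71). At mid-dark, all tumor-bearing mice but mouse 11 lay below all vehicle injected mice in both ratios. The tumor differences in BS with these ratios in the fit are not given here.

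For Sox10 in the hypothalamus at mid-light, tumor-bearing mice had levels of 7.72, 8.13, 7.41, 7.85 and 7.69 against 8.12, 8.16, 8.06 and 8.11 for vehicle. In the mid-dark groups, tumor-bearing mice had 8.08, 8.01, 8.02, 8.00 and 7.91 against 8.26, 8.45 and 7.92. At mid-light 4 of 5 tumor-bearing mice lay below all vehicle injected mice, mouse 5 being the exception. The tumor difference averaged over phase was -0.28 (SE 0.09, unadjusted p = 0.0067, limma adjusted p = 0.365), and its values at mid-dark and mid-light were -0.21 and -0.35. In HPC it was -0.14 (95% CI -0.33 to 0.04), and in BS it was -0.10 (95% CI -0.26 to 0.05).

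As a mean over the 3 regions the Sox10 difference was -0.18 (SE 0.05, adjusted p = 0.0938) with the mouse as a block, beside 2.34% of all genes called. The adjusted p was 0.0371 without the block, and between 0.0187 and 0.0442 when mouse 5, 19 or 28 was left out. The other 4 genes gave no call under these settings. With the mature mean subtracted the Sox10 difference was -0.10 (adjusted p = 0.385).

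In the hippocampus at mid-dark, the Erbb3 levels were 7.68, 7.07, 7.35, 7.82 and 7.60 in tumor-bearing mice and 7.69, 8.12, 7.99, 7.59 and 7.82 in vehicle injected mice. The Sox10 levels there were 7.79, 7.53, 7.60, 8.00 and 7.97 in tumor-bearing mice and 8.05, 8.34, 8.01, 7.83 and 7.99 in vehicle injected mice. The groups overlapped for both genes. The differences were -0.34 (SE 0.12, adjusted p = 0.547) and -0.27 (SE 0.12, adjusted p = 0.673). Mouse 7 held the lowest hippocampal value of all 20 mice for all 5 genes and for the mature list mean, and without this sample the differences were -0.23 and -0.21.

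**Figure D5:**
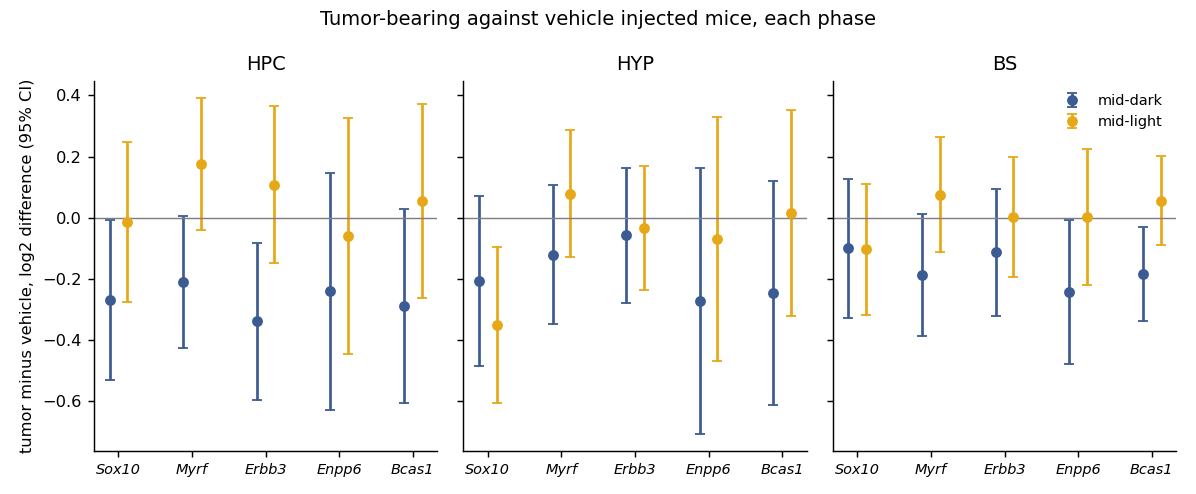
Tumor-bearing minus vehicle injected log2 difference (y axis) for the 5 lineage genes in each region, at mid-dark in blue and mid-light in yellow, as limma estimates with 95% CI. All mid-dark estimates are negative, and none of the 30 passed the adjusted test.

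The tumor difference did not pass as different between phases for any gene in any region, with 0 of 15 called and 3 with an unadjusted p under 0.05. These 3 were Erbb3 and Myrf in HPC, with a mid-dark tumor difference lower than the mid-light one by -0.45 and -0.39, and Bcas1 in BS, by -0.24 (adjusted p = 0.601, 0.601 and 0.988). Without mouse 7 the values for Erbb3 and Myrf in HPC were -0.34 and -0.31. Of all genes, 6.11% in HPC, 2.6% in HYP and 3.64% in BS had an unadjusted p under 0.05 in these tests, and 0% were called. No difference of the tumor effect between regions was called either (0 of 15, with 0 at an unadjusted p under 0.05, beside 2.21%, 5.32% and 2.34% of all genes for BS against HPC, HYP against HPC and BS against HYP).

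Within the groups, the 5 genes varied from mouse to mouse together with mature oligodendrocyte genes. Correlations were taken over the 56 samples after subtraction of the 12 group means, and are given as a description, since the 3 regions of a mouse and the normalization are shared. Tmem88b was nearest to Sox10 (Pearson r = 0.80, Spearman rho 0.81), Bcas1 to Myrf (r = 0.75, rho 0.72), Fa2h, a myelin lipid hydroxylase, to Erbb3 (r = 0.71, rho 0.69), Bcas1 to Enpp6 (r = 0.80, rho 0.76) and Ugt8a, which makes the myelin lipid galactosylceramide, to Bcas1 (r = 0.87, rho 0.79). Slc44a1, a choline transporter outside all lists, was also near Bcas1 (r = 0.81). The 10 genes nearest to each held between 6 and 8 of the 16 mature genes, while the median r over all genes was between -0.02 and -0.01.

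Among themselves the 5 genes had pairwise r from 0.29 to 0.80. The highest was that of Enpp6 with Bcas1, followed by Myrf with Bcas1 (0.75), Sox10 with Myrf (0.64), Sox10 with Erbb3 (0.60) and Myrf with Enpp6 (0.59). Enpp6 had 0.29 with both Sox10 and Erbb3. In BS alone Enpp6 and Sox10 had r = -0.32 over 19 samples, and in HPC alone 0.65 over 20. With the mature list mean, r was 0.74 for Sox10, 0.67 for Myrf, 0.67 for Erbb3, 0.65 for Enpp6 and 0.78 for Bcas1. These were higher in HPC, at 0.77 to 0.88, than in BS, at 0.20 to 0.66, where the mature mean spread less within the 4 groups (SD 0.04 to 0.13, against 0.14 to 0.27 in HPC).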

How the data were processed

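Per the file headers and the authors' methods, the deposited table holds log2 values of 770 nCounter probes. The authors subtracted negative controls, normalized to positive controls and to the codeset content with geometric means (nSolver), and quantile normalized (Partek). No probe counts entered the work, and depth is therefore unknown. All 56 samples had nearly one distribution (sample medians 8.07 to 8.09), so a change common to most genes cannot be seen.

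Each region was fitted in limma 3.58.1 (R 4.3.3) with 4 group means, and regions were compared with 12 group means and the mouse number as a random block (estimated correlation 0.136). Same-numbered samples come from 1 animal, which is what pairs them. P-values were adjusted by Benjamini-Hochberg over all genes tested, with calls at 0.05. A gene with the same value in all samples of a region was not tested there. One gene of the mature list, though part of its counts and mean, is not reported here by itself. The fits were tested on simulated data. Intervals are 95%. The genes described, the lists and the tests were chosen with earlier results of these data known. Genes named are the 5 members, list genes (up to 4 examples by size of difference, or all called where few), and the 3 nearest by correlation. Alternatives were a filter on mean log2 values under 5, unmoderated variance, unadjusted p, median centring, quantile normalization within region, RNA absorbance ratios as covariates, the mature mean subtracted, other blocks, and each mouse left out. The mature mean without Opalin and Pllp, and the fit without the hippocampus of mouse 7, were chosen after seeing the data.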

Additional observations from a re-analysis of the deposited data

Results flagged for a closer look

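Each of the 5 genes was examined in each group of 4 or 5 samples, which gave 55 sets. In 4 of these sets, 1 sample stood far from the others by Dixon's criterion. Chance alone gives this in about 1 independent set in 20. These sets share mice and correlated genes, so they are not independent. In tumor-bearing mice at mid-light, the hippocampus of mouse 29 had the highest Myrf value (10.2008, others 9.80 to 9.89) and the highest Bcas1 value (12.0136, others 11.50 to 11.63). In tumor-bearing mice at mid-dark, mouse 11 had a low Enpp6 value in the hypothalamus (6.50817, others 7.24 to 7.41) and a low Bcas1 value in the brain stem (12.8295, others 13.04 to 13.11). The mature oligodendrocyte mean of mouse 11 was the lowest in both regions, at 9.30 in HYP and 10.36 in BS, and that of mouse 29 was the highest in HPC, at 9.93.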

How the results depend on the processing

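Depth is unknown, and 3 to 5 mice a group limit what the fits can resolve. Regional calls (11 of 15) came to between 11 and 12 when each mouse was left out, 15 with the mature mean subtracted, and 11 with no replicate block or a fixed one. The same comparison relative to the mature mean gave 15 calls (14 to 15). With the unmoderated test's unadjusted p the calls were 3 for tumor status within phase, 1 averaged over phase, 1 over the 3 regions, 3 for tumor by phase, 17 for phase within regions and 7 for phase by region; the adjusted test gave 0, 0, 0, 0, 2 and 0. Phase within regions (2 of 45) gave 1 call with RNA absorbance covariates, 23 with the mature mean subtracted and 8 with that mean lacking Opalin and Pllp. It gave 5 with the 3 regions fitted together and the mouse as a block, and 1 to 3 with each mouse left out. The share of all genes within regions is not given here for these settings, nor for the 17 by unadjusted p. These counts therefore do not set the 5 genes apart. Phase over the 3 regions (2 of 5) gave 4 calls with the mature mean subtracted, beside 79.7% of all genes called higher, and 1 to 2 with each mouse left out. Tumor status over the 3 regions (0 of 5) gave 1 call, Sox10, with no replicate block, and 0 to 1 with each mouse left out. The joint fit of the 3 regions also called Bcas1 in HPC of tumor-bearing mice, mid-dark minus mid-light (-0.50). The block as a fixed effect lost the call of Sox10 in BS minus HYP relative to the mature mean (-0.09). Among the values recomputed, the block settings and the joint fit changed no call other than these and those given with the results.

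Leaving out a mouse turned no direction of the values recomputed. With the mature mean subtracted, signs turned for BS minus HPC of Erbb3 (-0.31) and Sox10 (-0.25), BS minus HYP of Erbb3 (-0.14) and Sox10 (-0.10), HYP minus HPC of Enpp6 (-0.17), Erbb3 (-0.17), Myrf (-0.12) and Sox10 (-0.15), and mid-dark minus mid-light of Enpp6 in BS (0.0068) and over the 3 regions (0.026), Bcas1 in HPC (0.072, and 0.0073 in tumor-bearing mice) and Myrf in HPC of tumor-bearing mice (0.25). They also turned for mid-dark minus mid-light of Erbb3 in HPC of tumor-bearing mice (0.32), Bcas1 over the 3 regions (0.17) and in BS (0.24), and Enpp6 in HYP (0.10), and for other values that are not named. Without Opalin and Pllp in that mean, among the values recomputed, they turned for BS minus HPC of Erbb3 (-0.39) and Sox10 (-0.33), BS minus HYP of Erbb3 (-0.17) and Sox10 (-0.13), HYP minus HPC of Enpp6 (-0.21), Erbb3 (-0.22), Myrf (-0.16) and Sox10 (-0.20), mid-dark minus mid-light of Myrf in HPC of tumor-bearing mice (0.19), and the phase difference of Myrf between HYP and HPC (-0.013). The mature mean itself differs between these groups, which sets these signs. Enpp6 in HYP minus HPC was -0.044 with RNA absorbance covariates; the cause was not tested.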
